A study of Mus musculus with 6 samples.

Results

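Oxidative phosphorylation genes were described across 3 subsets of intraepithelial lymphocytes, T cells found between the epithelial cells of the small intestine, in the mouse. Members were the probe sets with a single platform gene symbol that starts with Nduf, Uqcr, Cox4, Cox5, Cox6, Cox7, Cox8 or Atp5, or is Sdha, Sdhb, Sdhc, Sdhd, Cycs or Cyc1. They numbered 101 of the 12488 probe sets on the array and stood for 73 of the 8252 genes that had a probe set with a single symbol. A probe set is a group of short probes that together give 1 value per array, and genes with several probe sets kept each of them. Whether the probes of a member read that gene alone was not tested. A further 10 probe sets carried a member symbol together with other symbols and were not counted as members.

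Freshly isolated, untreated cells came from C57BL/6 mice under 8 weeks of age. The subsets were TCRgd CD8aa cells (γδ T cell receptor, CD8αα homodimer), TCRab CD8aa cells (αβ receptor, CD8αα homodimer) and TCRab CD8ab cells (αβ receptor, CD8αβ heterodimer). The titles of both TCRgd CD8aa samples read TCRgb and their source names TCRgd, and the source name was used. In each of 2 experiments all 3 subsets were sorted from 1 pool of intraepithelial lymphocytes of 20 mice, and the RNA of each subset went onto 1 Affymetrix array, so each subset had 2 arrays. The replicates were pools, so no p-value measured the spread between mice, and the number of arrays limited the precision. In fits without a term for the experiment, the p-values measured the spread between pools. In fits with that term, they measured what was left after the subset and experiment terms. A difference between experiments therefore set 1 pool against 1 pool, and its arrays were sorted subsets of these pools.

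Oxidative phosphorylation passes electrons from NADH and succinate along complexes I to IV of the inner mitochondrial membrane to oxygen. Complexes I, III and IV pump protons as the electrons pass, and complex V, the ATP synthase, lets the protons back to make ATP. Nearly all of the subunits are encoded in the nucleus, and T cells use this pathway for long-lived maintenance and as part of the energy supply of activated cells.

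Signals were MAS5 intensities on a linear scale, turned here into log2 after values under 15.3 (log2 3.94, the floor) were set to that value. A probe set was tested if at least 2 arrays lay above a signal of 56.4, and 79 of the 101 member probe sets (67 of the 73 genes) passed. The number that passed was 30 of 38 for complex I, 4 of 4 for complex II, 9 of 9 for complex III, 11 of 22 for complex IV and 20 of 22 for complex V. Cycs, the electron carrier cytochrome c, passed with its 1 probe set, as did 4 of 5 for the assembly and associated factors Ndufaf1, Ndufaf4 and Cox7a2l. The 22 that did not pass included 5 at the floor on all 6 arrays. Ndufa12, Ndufs4, Cox5a, Cox6b2, Cox7a1 and Cox8a had no probe set past the filter.

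The trimmed mean signal was 500.4 on every array, the median signal lay between 83.4 and 113, and 17.1% to 24.5% of the values on an array were at the floor. T cell markers were present on all arrays, with 8 of 9 genes measured and none at the floor throughout. Cd8b1, which encodes the CD8β chain, read log2 9.58 and 4.81 in TCRgd CD8aa cells, 7.51 and 4.88 in TCRab CD8aa cells, and 14.75 and 14.11 in TCRab CD8ab cells in experiments 2 and 1, the order that the CD8 labels give. Both CD8aa subsets read higher for Cd8b1 in experiment 2 than in experiment 1, and the cause was not tested. Markers of enterocytes, the absorptive cells of the lining (16 of 19 genes measured), summed to a signal of 28100 on the TCRgd CD8aa array of experiment 2, against 1370 to 2670 on the other 5 arrays. Fabp1, the liver-type fatty acid binding protein of enterocytes, read log2 12.33 there and 7.09 to 8.94 elsewhere. On the same array markers of secretory epithelium summed to 1830, against 80.7 to 356 on the other 5, and mast cell markers to 672, against 41.1 to 164. T cell markers summed to 36200 and 72600 in TCRgd CD8aa cells, 39600 and 69200 in TCRab CD8aa cells and 68300 and 79400 in TCRab CD8ab cells in experiments 2 and 1. These T cell sums included Cd8b1, which was far higher in TCRab CD8ab cells, so they do not compare T cell content between subsets. B cell, myeloid, erythroid, muscle and fibroblast markers summed to 89.6 to 1430 on every array. In such bulk samples fewer cells of a type and less RNA per cell cannot be told apart. The arrays of experiment 2 also had a 3′ to 5′ signal ratio for beta-actin of 40.4 to 52.2, against 1.41 to 1.76 in experiment 1, and for Gapdh of 22.3 to 29.6, against 3.38 to 5.2 in experiment 1.

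Promoters are shown for 3 members chosen for their differences between subsets: Cox6b1 and Atp5k, which lay more than 1 log2 unit lower in TCRab CD8aa than in TCRab CD8ab cells in both experiments, and Sdhb, which read lower on all 4 CD8aa arrays than on both TCRab CD8ab arrays. Each window of 300 bases runs 5′ to 3′ on the gene's strand from 250 bases before the RefSeq start to 50 bases after it, in build GRCm38.p6. Capitals mark the ETS core CCGGAAG, the core bound by GABPA, or the NRF1 core (GCGCA, any base, GCGC), on either strand. The windows are chr7:30626065-30626364 (minus strand) for Cox6b1, chr5:108434350-108434649 (minus strand) for Atp5k and chr4:140961021-140961320 (plus strand) for Sdhb.
Cox6b1: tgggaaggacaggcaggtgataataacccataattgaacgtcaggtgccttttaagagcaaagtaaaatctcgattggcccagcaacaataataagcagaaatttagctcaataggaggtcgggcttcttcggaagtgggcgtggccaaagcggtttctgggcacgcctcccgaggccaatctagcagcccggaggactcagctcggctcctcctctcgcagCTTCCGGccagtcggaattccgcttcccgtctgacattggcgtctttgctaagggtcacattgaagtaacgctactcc
Atp5k: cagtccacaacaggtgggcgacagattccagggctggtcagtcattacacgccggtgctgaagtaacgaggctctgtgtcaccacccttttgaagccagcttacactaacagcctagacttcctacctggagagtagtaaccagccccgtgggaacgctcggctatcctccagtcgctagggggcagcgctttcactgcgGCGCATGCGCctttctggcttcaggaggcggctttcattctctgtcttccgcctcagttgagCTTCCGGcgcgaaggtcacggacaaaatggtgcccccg
Sdhb: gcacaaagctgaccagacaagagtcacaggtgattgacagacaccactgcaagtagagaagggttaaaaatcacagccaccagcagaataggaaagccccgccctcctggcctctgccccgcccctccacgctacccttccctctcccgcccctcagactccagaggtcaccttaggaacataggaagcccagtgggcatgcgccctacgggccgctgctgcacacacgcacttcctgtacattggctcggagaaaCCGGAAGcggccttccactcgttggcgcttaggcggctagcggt

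The ETS core began 28 bases before the start in Cox6b1, 12 bases after it in Atp5k and 6 bases after it in Sdhb, and Atp5k also held the NRF1 core 50 bases before the start. GABPA and NRF1 are transcription factors known for regulating nuclear genes of mitochondrial proteins. RefSeq promoters matched 59 of the 73 member genes, with 64 windows. The NRF1 core was found in 12 of the 59 genes (20.3%), against 5.19% of all 27025 genes with a window. The ETS core was found in 16 member genes (27.1%), against 9.93% of all genes. The YY1 core AAGATGGC was found in 8 member genes (13.6%), against 3.19% of all genes. CCAAT was found in 25 member genes (42.4%), against 41.1% of all genes. Against the 17492 protein-coding genes alone the shares were 7.17%, 12.9%, 3.57% and 42.3% for NRF1, ETS, YY1 and CCAAT. Both strands were searched and overlap between motifs was allowed. A match describes letters in the window and not a bound site.

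The first question was whether these genes differed between TCRab CD8aa and TCRab CD8ab cells, which share the αβ receptor and differ in the CD8 form. No member passed the test, and the members lay slightly lower in TCRab CD8aa cells by their median. With limma fitted on all 8299 tested probe sets, 0 of 79 members passed a Benjamini-Hochberg adjusted p under 0.05, where 0% of all tested probe sets did. Each experiment was a pool from which all subsets were sorted, and with the experiment as a replicate block the count was again 0 of 79, where 0.819% of all tested probe sets passed. The smallest adjusted p of a member was 0.9998 without the block and 0.373 with it. At an unadjusted p under 0.05, 0 members passed without the block, where 2.25% of all tested probe sets did. With the block 8 members (10.1%) did, all lower in TCRab CD8aa cells, against 5.58% of all tested probe sets lower and 10.1% in either direction.

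The median difference of the 79 members was −0.18 (log2, TCRab CD8aa minus TCRab CD8ab), against −0.08 over all tested probe sets. It was −0.39 in experiment 2 (all probe sets −0.2) and −0.03 in experiment 1 (all probe sets 0.02). After quantile normalization the medians were −0.07 for the members and 0.02 for all probe sets. Without TCRab CD8aa replicate 1 the members' median was −0.43, and over all arrays left out in turn it ran from −0.43 to 0.06. Members lower in both experiments numbered 29 (36.7%, against 30.1% of all tested probe sets), and 10 were higher in both (12.7%, against 22.9%). Both arrays of TCRab CD8aa cells lay below both of TCRab CD8ab cells for 11 members (13.9%, against 12.8% of all), and above them for 3 (3.8%, against 10%). Those 3 were Ndufa1, Ndufa13 and Atp5pb.

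**Figure D1:**
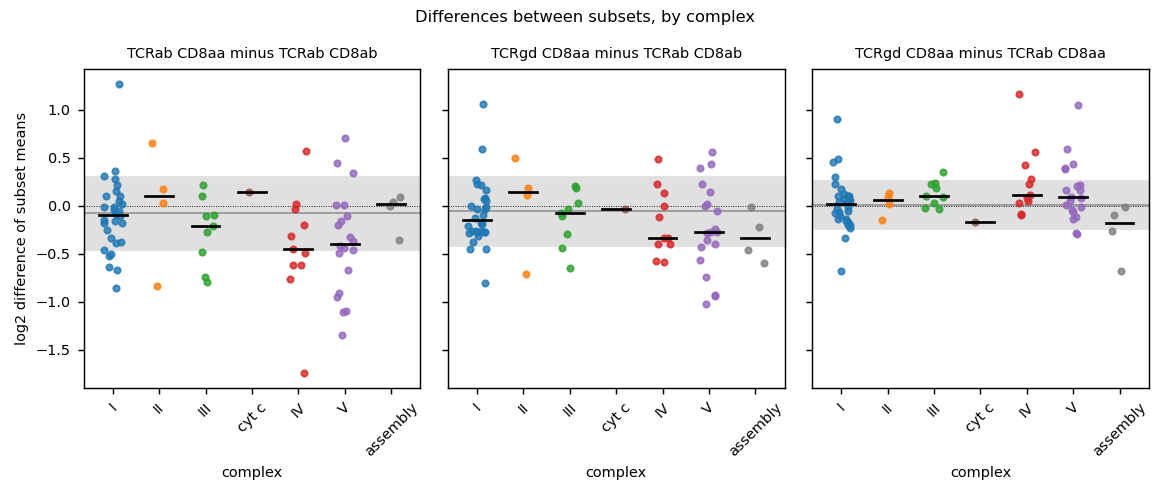
Log2 difference of subset means for each of the 79 tested member probe sets, by complex, in the 3 comparisons of subsets. Each point is 1 probe set, black bars are medians, the grey line is the median of all 8299 tested probe sets and the grey band their middle quartiles (−0.466 to 0.301 in the left panel). Complex IV and V medians lie at −0.45 and −0.40 in the left panel.

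By complex, the median difference between TCRab CD8aa and TCRab CD8ab cells was −0.10 for complex I, 0.10 for complex II, −0.21 for complex III, −0.45 for complex IV and −0.40 for complex V. For complex II it was 0.44 in experiment 2 and −0.24 in experiment 1. For complex IV it was −0.77 in experiment 2 and 0.11 in experiment 1, and for complex V −0.62 in experiment 2 and −0.08 in experiment 1. The plot of differences by complex shows that the complexes overlapped widely and that most members lay within the middle quartiles of all probe sets.

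In complex I, the NADH dehydrogenase, 1 of the 2 tested probe sets of Ndufv2, a flavoprotein subunit with an iron-sulfur centre, read log2 9.45 and 9.49 in TCRab CD8aa cells and 10.21 and 10.44 in TCRab CD8ab cells in experiments 2 and 1. Both TCRab CD8aa arrays lay below both TCRab CD8ab arrays. The difference was −0.86 ± 0.36 (SE with the block, 95% interval −1.67 to −0.05, limma adjusted p = 0.468). The other tested Ndufv2 probe set read 7.75 and 7.4 in TCRab CD8aa cells and 8.38 and 7.14 in TCRab CD8ab cells, so its groups overlapped.

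Ndufa3, an accessory subunit, had the largest positive difference among the members with 1 of its 2 tested probe sets. It read 6.4 and 7.79 in TCRab CD8aa cells and 4.15 and 7.49 in TCRab CD8ab cells in experiments 2 and 1. The difference of 1.27 ± 0.69 (95% interval −0.28 to 2.82, limma adjusted p = 0.585) came mainly from the low TCRab CD8ab array of experiment 2, and without that array it was −0.39. The other tested Ndufa3 probe set had a difference of 0.10.

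In complex II, succinate dehydrogenase, Sdhb encodes the iron-sulfur subunit. It read log2 10.81 and 10.38 in TCRab CD8aa cells and 11.52 and 11.35 in TCRab CD8ab cells in experiments 2 and 1. The groups did not overlap, and the difference was −0.84 ± 0.30 (95% interval −1.53 to −0.16, limma adjusted p = 0.411 with the block). Sdhc, a membrane anchor of the same complex, lay the other way, with 9.69 and 10.15 in TCRab CD8aa cells and 8.74 and 9.78 in TCRab CD8ab cells. Its groups overlapped, and the difference was 0.65 ± 0.33 (adjusted p = 0.552).

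In complex III, the cytochrome bc1 complex, the small subunit Uqcr10 read log2 8.77 and 9.59 in TCRab CD8aa cells and 9.79 and 10.05 in TCRab CD8ab cells in experiments 2 and 1. The groups did not overlap (difference −0.74 ± 0.32, adjusted p = 0.488 with the block). The core subunit Uqcrc2 read 12.81 and 11.88 in TCRab CD8aa cells and 14.17 and 12.12 in TCRab CD8ab cells. Its difference of −0.80 ± 0.34 (adjusted p = 0.475) was −1.36 in experiment 2 and −0.23 in experiment 1. The groups overlapped, because the TCRab CD8ab array of experiment 1 lay below the TCRab CD8aa array of experiment 2.

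In complex IV, cytochrome c oxidase, Cox6b1 encodes a subunit that faces the intermembrane space. It read log2 6.63 and 4.89 in TCRab CD8aa cells and 8.27 and 6.74 in TCRab CD8ab cells in experiments 2 and 1. The difference of −1.75 ± 0.59 (95% interval −3.07 to −0.42, limma adjusted p = 0.373 with the block) was the largest negative one among the tested members. It was −1.64 in experiment 2 and −1.85 in experiment 1, and the higher TCRab CD8aa array lay just below the lower TCRab CD8ab array.

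Several complex IV subunits come in pairs of isoforms, of which 1 is widespread and the other known from heart and skeletal muscle, testis or lung. Cox6a1, the widespread form, read log2 12.94 and 12.8 in TCRgd CD8aa cells, 12.47 and 12.81 in TCRab CD8aa cells and 13.93 and 12.6 in TCRab CD8ab cells in experiments 2 and 1. Cox6a2, its heart and muscle form, passed the filter and read 5.74 and 6.45 in TCRgd CD8aa cells, 4.82 and 6.26 in TCRab CD8aa cells and 4.89 and 6.84 in TCRab CD8ab cells. Cox7a2, the widespread form of subunit 7a, read 10.51 and 10.68 in TCRgd CD8aa cells, 10.38 and 10.26 in TCRab CD8aa cells and 11.73 and 10.13 in TCRab CD8ab cells. Cox7a1, its heart and muscle form, did not pass the filter and lay between the floor of 3.94 and 5.39 on the 6 arrays.

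For subunit 8, the muscle form Cox8b passed with 1 of its 2 probe sets. It read log2 7.24 and 7.36 in TCRab CD8aa cells and 8.74 and 7.38 in TCRab CD8ab cells in experiments 2 and 1, a difference of −0.76 ± 0.47 (adjusted p = 0.633 with the block). Its other probe set did not pass. The widespread form Cox8a did not pass, with values from the floor of 3.94 to 5.73. Cox8c, the testis form, read 7.83 to 9.65 with 1 probe set, while its other probe set lay at the floor on all 6 arrays. The 3 probe sets of Cox6b2, the testis form of subunit 6b, and the 2 of Cox5a did not pass. Signals of different probe sets cannot be set against each other, so these values show no order between isoforms. Cox4i2, Cox7b2, Ndufa4 and Ndufa4l2 were not analysed here.

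In complex V, Atp5k encodes subunit e of the membrane part of the synthase. It read log2 6.03 and 6.05 in TCRab CD8aa cells and 7.31 and 7.47 in TCRab CD8ab cells in experiments 2 and 1. The groups did not overlap, and the difference was −1.35 ± 0.56 (95% interval −2.61 to −0.10, limma adjusted p = 0.464 with the block), with −1.29 in experiment 2 and −1.42 in experiment 1. Cox6b1 and Atp5k were the 2 members (2.53%) beyond 1 log2 unit the same way in both experiments, where 4.92% of all tested probe sets were.

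Atp5d, the δ subunit of the catalytic part, had 4 tested probe sets. The first of them read 8.38 and 9.22 in TCRab CD8aa cells and 10.2 and 9.63 in TCRab CD8ab cells in experiments 2 and 1, with no overlap (difference −1.11 ± 0.39, 95% interval −2.0 to −0.23, adjusted p = 0.401 with the block). Another read 8.2 and 9.71 in TCRab CD8aa cells and 9.46 and 9.3 in TCRab CD8ab cells, so its groups overlapped. Over the other 3 Atp5d probe sets the differences were −0.91, −0.42 and 0.01. Atp5l, subunit g, read 6.27 and 8.73 with 1 of its 2 tested probe sets in TCRab CD8aa cells and 7.47 and 9.43 in TCRab CD8ab cells, with a difference of −0.95 (adjusted p = 0.49), and its other probe set had −0.11. Its groups overlapped, with both subsets far lower in experiment 2 than in experiment 1.

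Cycs, cytochrome c, read log2 9.55 and 8.7 in TCRab CD8aa cells and 8.92 and 9.06 in TCRab CD8ab cells in experiments 2 and 1, a difference of 0.14 ± 0.39 (95% interval −0.75 to 1.02 with the block). It went both ways, with 0.64 in experiment 2 and −0.36 in experiment 1. Ndufaf4, an assembly factor of complex I, read 7.13 and 6.42 in TCRab CD8aa cells and 8.08 and 6.19 in TCRab CD8ab cells. Its difference of −0.36 lay within the spread between experiments.

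**Figure D2:**
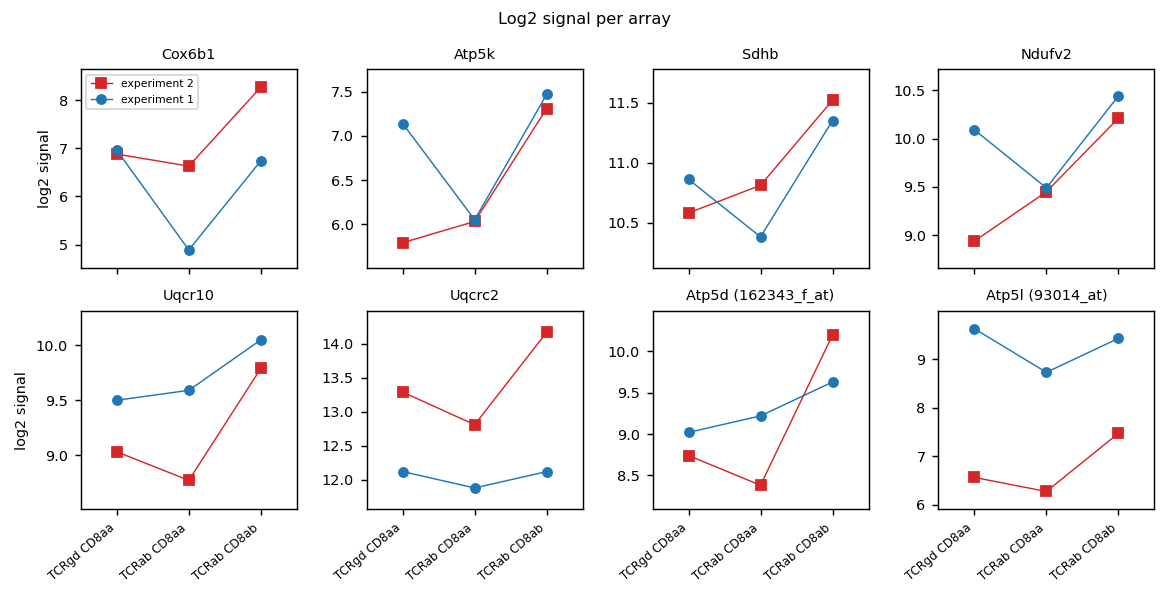
Log2 signal on each of the 6 arrays for 8 members, with red squares for experiment 2 and blue circles for experiment 1, and lines joining arrays of 1 experiment; each panel has its own vertical scale. TCRab CD8ab values top those of both CD8aa subsets in both experiments for Atp5k, Sdhb, Ndufv2, Uqcr10 and Atp5d, while Cox6b1 of TCRgd CD8aa cells in experiment 1 (6.96) lies above TCRab CD8ab cells (6.74).

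The next question was whether TCRgd CD8aa cells differed from TCRab CD8ab cells in these genes. This comparison uses the same TCRab CD8ab arrays as the one above, so the results of both are not independent. No member passed in limma's fit without the block (0 of 79, where 0% of all tested probe sets passed) or with it (0 of 79, where 0.554% passed). At an unadjusted p under 0.05, 0 members passed without the block, where 2.02% of all tested probe sets did. With the block 3 (3.8%) passed, all lower in TCRgd CD8aa cells, where 4.37% of all tested probe sets were lower and 8.21% passed in either direction. The smallest adjusted p of a member was 0.512 with the block.

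The median difference was −0.18 (log2, TCRgd CD8aa minus TCRab CD8ab), against −0.06 over all tested probe sets. It was −0.27 in experiment 2 (all probe sets −0.17) and −0.04 in experiment 1 (all probe sets 0.03). Without TCRgd CD8aa replicate 2, the array with the enterocyte marker sum of 28100, the median was 0.07 and 0 members passed. The part of that signal in these differences was not tested. After quantile normalization the medians were −0.11 for the members and −0.03 for all probe sets.

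Members lower in both experiments numbered 28 (35.4%, against 28.7% of all tested probe sets), and 11 were higher in both (13.9%, against 22.9%). Both arrays lay below both TCRab CD8ab arrays for 6 members (7.59%, against 10.4% of all): Atp5k, Atp5d, Ndufv2, Uqcr10, Sdhb and Atp5mpl. They lay above for 4 (5.06%, against 9.39%): Ndufc2, Ndufa13, Cox4i1 and Atp5pb. Of these, Ndufc2 passed the filter only through its TCRgd CD8aa arrays. No member lay beyond 1 log2 unit the same way in both experiments, where 3.88% of all tested probe sets did. The median was −0.15 for complex I, 0.15 for complex II, −0.08 for complex III, −0.34 for complex IV and −0.27 for complex V. Its sign turned between experiments for complex II (0.4 in experiment 2 and −0.11 in experiment 1) and for complex IV (−0.39 in experiment 2 and 0.2 in experiment 1).

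The first Atp5d probe set read log2 8.74 and 9.02 in TCRgd CD8aa cells and 10.2 and 9.63 in TCRab CD8ab cells in experiments 2 and 1, with no overlap. The difference was −1.03 ± 0.39 (95% interval −1.92 to −0.15, limma adjusted p = 0.512 with the block). The other 3 tested Atp5d probe sets had differences of −0.27, −0.06 and 0.14, so the probe sets of this gene did not share the size or sign. The same Ndufv2 probe set as above read 8.94 and 10.09 in TCRgd CD8aa cells and 10.21 and 10.44 in TCRab CD8ab cells (difference −0.81 ± 0.36, adjusted p = 0.595), and the other Ndufv2 probe set had a difference of −0.26. For the Ndufv2 probe set with the difference of −0.81 the groups did not overlap, although its TCRgd CD8aa arrays lay more than 1 log2 unit apart.

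Sdhb read 10.58 and 10.86 in TCRgd CD8aa cells and 11.52 and 11.35 in TCRab CD8ab cells in experiments 2 and 1 (difference −0.71 ± 0.30, 95% interval −1.40 to −0.03, adjusted p = 0.577). Atp5mpl, a small membrane subunit of the synthase, read 9.02 and 10.19 in TCRgd CD8aa cells and 10.26 and 10.43 in TCRab CD8ab cells (difference −0.74 ± 0.34, adjusted p = 0.631). For both genes the lower values lay in TCRgd CD8aa cells on each array. Atp5k read 5.79 and 7.14 in TCRgd CD8aa cells and 7.31 and 7.47 in TCRab CD8ab cells, so that most of its difference lay in experiment 2.

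Uqcr10 read 9.03 and 9.5 in TCRgd CD8aa cells and 9.79 and 10.05 in TCRab CD8ab cells (difference −0.65, adjusted p = 0.657). Cox7b, a small subunit of complex IV, read 8.26 and 10.01 in TCRgd CD8aa cells and 9.32 and 10.12 in TCRab CD8ab cells (difference −0.59 ± 0.35, adjusted p = 0.714). Its groups overlapped. Ndufc2, an accessory subunit of complex I, had the largest positive difference, with 6.57 and 6.03 in TCRgd CD8aa cells and 5.81 and 4.68 in TCRab CD8ab cells (1.06 ± 0.67, 95% interval −0.46 to 2.57, adjusted p = 0.721). Only its TCRgd CD8aa arrays lay above the filter signal of 56.4. It was thus tested only through the subset where it was high, and its rank follows in part from the filter. Cycs read 9.55 and 8.37 in TCRgd CD8aa cells and 8.92 and 9.06 in TCRab CD8ab cells, a difference of −0.03 that was 0.63 in experiment 2 and −0.69 in experiment 1.

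**Figure D3:**
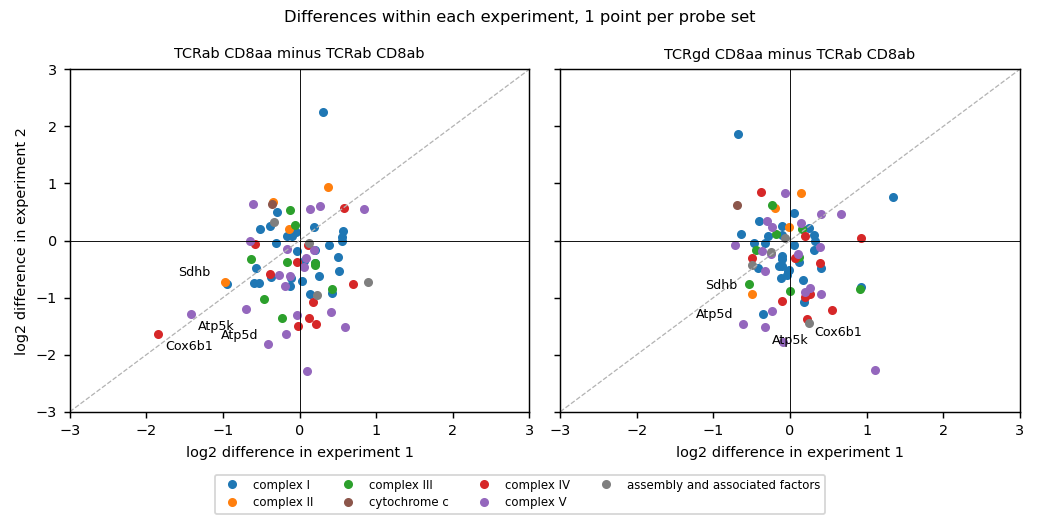
Log2 difference in experiment 2 (vertical axis) against the same difference in experiment 1 (horizontal axis) for the 79 tested member probe sets, coloured by complex, with the dashed line where both are equal. Both panels share the TCRab CD8ab arrays. In the left panel Cox6b1 and Atp5k lie beyond −1 in both experiments, and most other members scatter around 0 with a wider spread in experiment 2.

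The last comparison of subsets set TCRgd CD8aa against TCRab CD8aa cells, which share the CD8αα form. Again no member passed in limma's fit without the block (0 of 79, where 0% of all tested probe sets passed) or with it (0 of 79, where 0.0241% passed). At an unadjusted p under 0.05 the count was 0 in both fits, where 0.41% of all tested probe sets passed without the block and 2.07% with it. The median difference was 0.05 (log2, TCRgd CD8aa minus TCRab CD8aa), against 0 over all tested probe sets. It was 0.09 in experiment 2 and 0.03 in experiment 1, and it was 0 after quantile normalization, where all probe sets had −0.05. Its sign turned without TCRgd CD8aa replicate 1 (−0.13) and without TCRab CD8aa replicate 2 (−0.16). It was 0.25 without TCRgd CD8aa replicate 2, 0.27 without TCRab CD8aa replicate 1 and 0.05 without either TCRab CD8ab array. The difference lay above 0 for 47 members and below 0 for 32, against 4163 above and 4135 below among the 8299 tested probe sets. In both experiments 23 members were higher (29.1%, against 23.9% of all tested probe sets) and 14 were lower (17.7%, against 24.8%), and 0 lay beyond 1 log2 unit the same way, where 1.45% of all did.

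Both TCRgd CD8aa arrays lay above both TCRab CD8aa arrays for 6 members (7.59%, against 7.78% of all tested probe sets): Cox8b, Ndufc2, Ndufb3, Cox7a2, Atp5d and Cox6b1. Of these, Ndufc2 passed the filter only through its TCRgd CD8aa arrays. Both TCRgd CD8aa arrays lay below for 0 members, against 6.64% of all. Cox6b1 had the largest difference, with log2 6.88 and 6.96 in TCRgd CD8aa cells and 6.63 and 4.89 in TCRab CD8aa cells in experiments 2 and 1 (1.16 ± 0.59, 95% interval −0.16 to 2.49, adjusted p = 1 with the block). It was 0.26 in experiment 2 and 2.07 in experiment 1, so the low TCRab CD8aa array of experiment 1 set most of it.

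A probe set of Atp5d that was not described above read 7.94 and 6.61 in TCRgd CD8aa cells and 6.41 and 6.04 in TCRab CD8aa cells in experiments 2 and 1 (difference 1.05 ± 0.53), while the other 3 had differences of 0.16, 0.08 and −0.07. The difference of 1.05 was 1.52 in experiment 2, where the TCRgd CD8aa array had the high enterocyte marker sum, and 0.57 in experiment 1. The part of that signal in it was not tested. Ndufc2 read 6.57 and 6.03 in TCRgd CD8aa cells and 5.74 and 5.06 in TCRab CD8aa cells (difference 0.90 ± 0.67). Neither this Atp5d probe set nor Ndufc2 had overlapping groups. Ndufc2 passed the filter only through its TCRgd CD8aa arrays, so its lack of overlap follows from the filter. Uqcrc2 read 13.29 and 12.12 in TCRgd CD8aa cells and 12.81 and 11.88 in TCRab CD8aa cells (difference 0.35 ± 0.34), and these overlapped. The median was 0.02 for complex I, 0.05 for complex II, 0.10 for complex III, 0.11 for complex IV and 0.08 for complex V.

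A missed threshold does not show equal levels. With the block, the SE of a member's difference between TCRab CD8aa and TCRab CD8ab cells ran from 0.28 to 0.95 with a median of 0.34. The 95% interval lay within ±1 log2 unit for 48 of the 79 members between TCRgd CD8aa and TCRab CD8aa cells, for 33 between TCRgd CD8aa and TCRab CD8ab cells and for 28 between TCRab CD8aa and TCRab CD8ab cells. In both comparisons with TCRab CD8ab cells the intervals of most members thus reached beyond 1 log2 unit. Without the block, intervals between TCRab CD8aa and TCRab CD8ab cells that lay below 0 with it took in 0. They ran from −3.76 to 0.27 for Cox6b1, −2.94 to 0.24 for Atp5k and −1.97 to 0.29 for Sdhb. For the first Atp5d probe set the interval was −2.43 to 0.21.

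Members did pass the test between the experiments, which set the sorted subsets of 1 pool against those of 1 other pool. Between experiment 2 and experiment 1, with the subset as a term in limma, 30 of 79 members (38%) passed an adjusted p under 0.05, where 34.1% of all tested probe sets did. In experiment 2, 22 members were lower (27.8%, against 20.4% of all tested probe sets) and 8 were higher (10.1%, against 13.7%). The median difference was −0.33 (log2, experiment 2 minus experiment 1), against −0.02 over all tested probe sets. Without the filter 11 of all 101 members passed (10.9%, 10 lower and 1 higher), against 4.07% of all probe sets. With eBayes without trend 19 of 79 passed (24.1%, 17 lower and 2 higher), against 27.4% of all tested probe sets. Without either TCRgd CD8aa array 18 passed (22.8%, against 24% or 24.1% of all), and without either TCRab CD8aa array 17 passed (21.5%, against 22.7% or 23.4%). Without either TCRab CD8ab array 29 passed (36.7%, against 35.4%). The members' share thus lay above that of all probe sets in some settings and below it in others. By subset the median was −0.35 in TCRgd CD8aa cells (all probe sets −0.08), −0.46 in TCRab CD8aa cells (all −0.15) and −0.17 in TCRab CD8ab cells (all 0.06). The 3′ to 5′ ratios also separated the experiments, and their part in the difference was not tested.

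**Figure D4:**
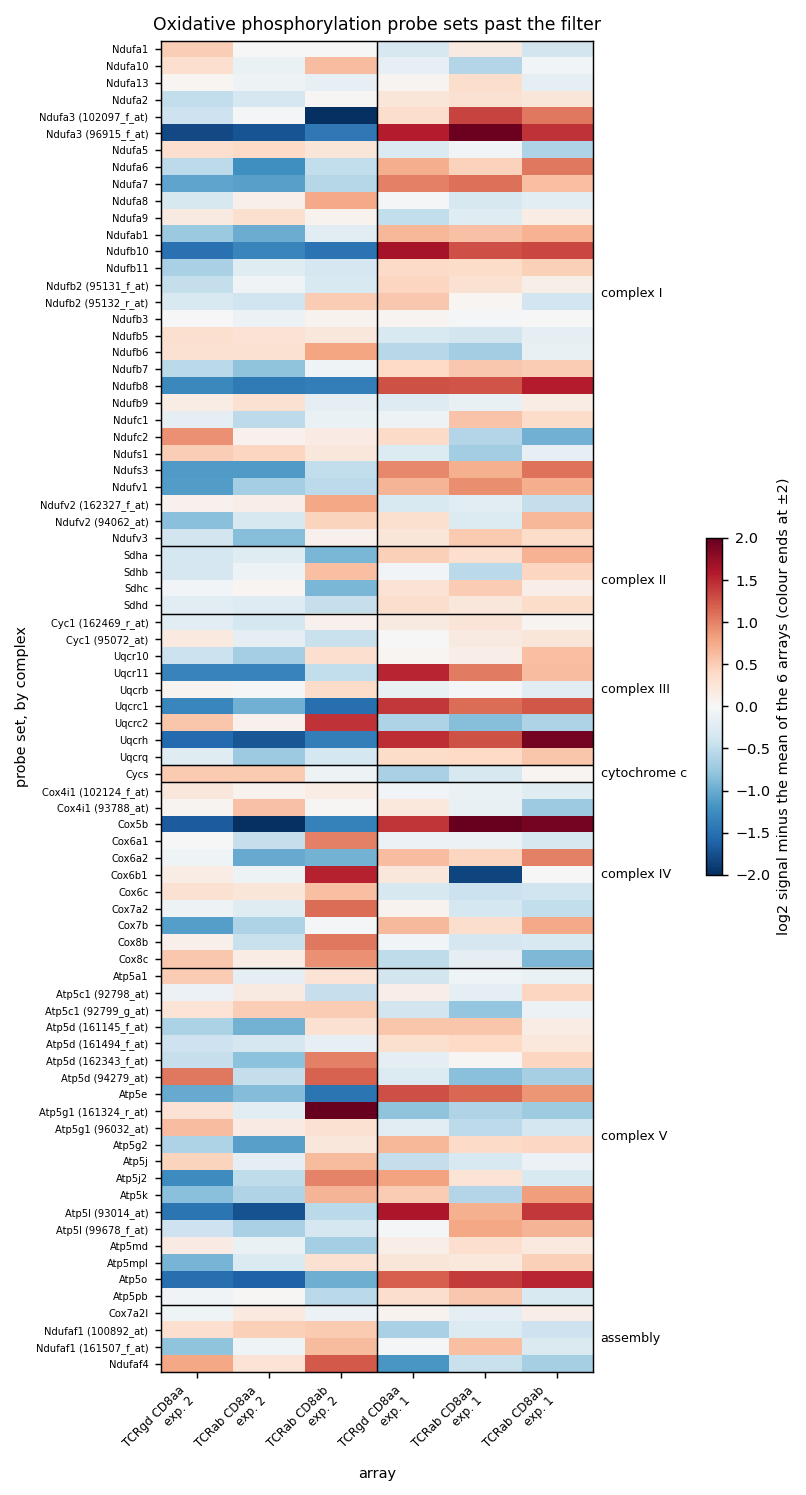
Log2 signal of the 79 tested member probe sets minus the mean of the 6 arrays for each, by complex, with experiment 2 on the left and experiment 1 on the right of the vertical line; colours end at ±2. Rows such as Cox5b, Uqcrh, Ndufb10, Ndufb8 and Atp5o are blue on all 3 arrays of experiment 2 and red on all 3 of experiment 1.

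In complex I, 11 of 30 tested members fell and 2 rose in experiment 2 relative to experiment 1. Of all tested probe sets 20.4% fell and 13.7% rose. The other tested Ndufa3 probe set read log2 8.86, 8.94 and 9.23 in TCRgd CD8aa, TCRab CD8aa and TCRab CD8ab cells of experiment 2, against 12.23, 12.62 and 12.11 in the same subsets of experiment 1. It fell by 3.31 ± 0.25 (SE, n = 3 arrays each, all from 1 pool per experiment, limma adjusted p = 0.000129). Ndufb10, an accessory subunit, read 6.41, 6.57 and 6.42 in experiment 2, against 9.56, 9.19 and 9.23 in experiment 1, and fell by 2.86 ± 0.32 (limma adjusted p = 0.000361). For both genes every array of experiment 2 lay more than 2 log2 units below every array of experiment 1. Ndufb8 fell by 2.72, Ndufs3 by 1.84, Ndufa7 by 1.81 and Ndufv1 by 1.55. Ndufb6, also an accessory subunit, rose, with 9.8, 9.8 and 10.28 in experiment 2 against 8.93, 8.79 and 9.35 in experiment 1 (0.94 ± 0.25, limma adjusted p = 0.019). Ndufs1, a core subunit with iron-sulfur centres, rose by 0.76.

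In complex II, Sdha, the flavoprotein subunit, fell by 1.01. It was the only 1 of 4 tested members that passed, where 20.4% of all tested probe sets fell and 13.7% rose. In complex III, 4 of 9 tested members fell and 1 rose, where 20.4% of all tested probe sets fell and 13.7% rose. Uqcrh, the hinge subunit, read log2 8.49, 8.34 and 8.66 in TCRgd CD8aa, TCRab CD8aa and TCRab CD8ab cells of experiment 2, against 11.52, 11.32 and 11.96 in experiment 1 (it fell by 3.10 ± 0.24, limma adjusted p = 0.000132). The core subunit Uqcrc1 fell by 2.52 and Uqcr11, a small subunit with 2 arrays at the floor, fell by 2.11. Uqcr11 passed the filter only through arrays of experiment 1, so its place among the 4 that fell follows in part from the filter. The other core subunit, Uqcrc2, rose by 1.38 ± 0.28 (limma adjusted p = 0.00491), with 13.29, 12.81 and 14.17 in experiment 2 against 12.12, 11.88 and 12.12 in experiment 1. Both core subunits thus moved in opposite directions between the experiments.

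In complex IV, 2 of 11 tested members fell and 2 rose, where 20.4% of all tested probe sets fell and 13.7% rose. The median of the complex was 0.44. Cox5b, a subunit that carries zinc, read log2 8.22, 7.44 and 8.52 in TCRgd CD8aa, TCRab CD8aa and TCRab CD8ab cells of experiment 2, against 11.31, 11.98 and 11.8 in experiment 1. It fell by 3.64 ± 0.32 (limma adjusted p = 0.000179), the largest difference among the members, and its groups lay far apart. Cox7b fell by 1.17. Cox8c read 9.26, 8.88 and 9.65 in experiment 2, against 8.22, 8.53 and 7.83 in experiment 1, and rose by 1.07 ± 0.34 (limma adjusted p = 0.0362). Cox6c, a small subunit, rose by 0.77.

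In complex V, 4 of 20 tested members fell and 1 rose, where 20.4% of all tested probe sets fell and 13.7% rose. Atp5o, the stalk subunit that confers oligomycin sensitivity, read log2 8.04, 7.94 and 8.57 in TCRgd CD8aa, TCRab CD8aa and TCRab CD8ab cells of experiment 2, against 10.75, 10.95 and 11.07 in experiment 1. It fell by 2.74 ± 0.26 (limma adjusted p = 0.000207), with no overlap. Atp5l fell by 2.49 with the probe set whose values are given above, and the other had a difference of −0.94 that did not pass. Atp5e, the ε subunit, fell by 2.22, and Atp5g2, a gene of the c ring, fell by 0.97. Atp5c1, the γ subunit, rose by 0.85 with 1 of its 2 tested probe sets, and the other had a difference of −0.26.

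Among the assembly and associated factors 2 of 4 tested members rose, where 13.7% of all tested probe sets did. Ndufaf4 read log2 7.64, 7.13 and 8.08 in TCRgd CD8aa, TCRab CD8aa and TCRab CD8ab cells of experiment 2, against 5.7, 6.42 and 6.19 in experiment 1 (1.52 ± 0.43, limma adjusted p = 0.0243). Ndufaf1, another assembly factor of complex I, rose by 0.89 ± 0.26 with 1 of its 2 tested probe sets (limma adjusted p = 0.0264), and the other had a difference of −0.18. The rises of Uqcrc2, Ndufaf4, Cox8c, Ndufb6 and Ndufaf1 did not pass under at least 1 alternative each, and the fall of Cox5b did not pass without the filter (limma adjusted p = 0.0514). Of 10 genes with several tested probe sets, Atp5c1, Atp5d, Ndufaf1 and Ndufv2 had probe sets with differences of opposite sign between the experiments. The medians were −0.50 for complex I, −0.62 for complex II, −0.52 for complex III and −0.47 for complex V.

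**Figure D5:**
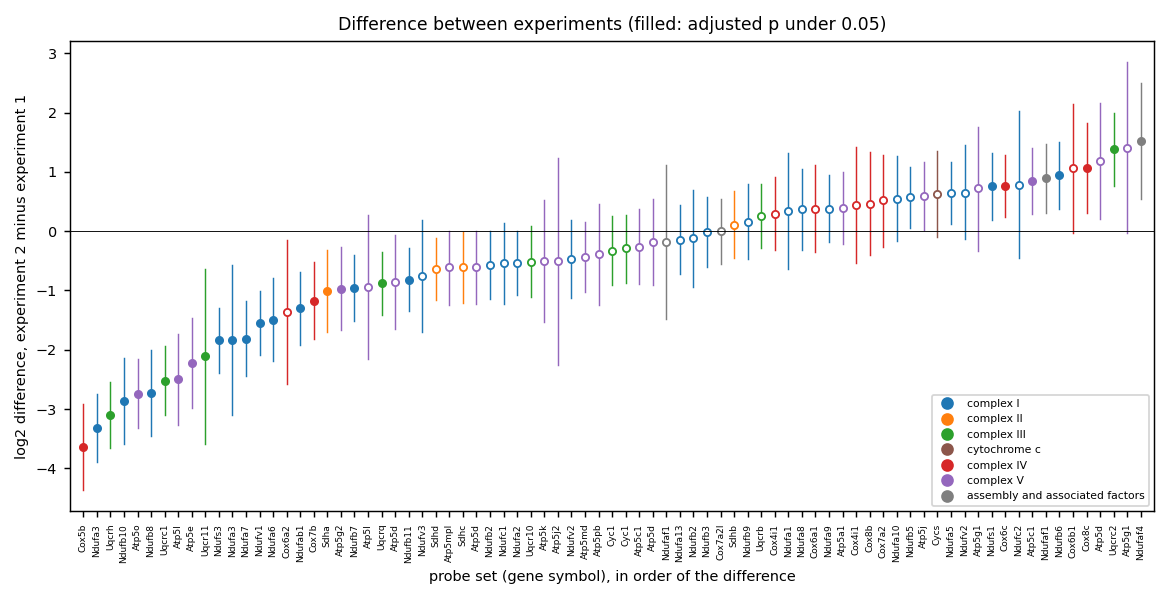
Log2 difference between experiment 2 and experiment 1 for each tested member probe set, in order of size and coloured by complex; lines are 95% intervals and filled points have an adjusted p under 0.05. The lowest values, led by Cox5b (−3.64), come from several complexes, and 8 filled points lie above 0.

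By array, the members' median log2 signal was 8.94 on the TCRgd CD8aa, 8.88 on the TCRab CD8aa and 9.32 on the TCRab CD8ab array of experiment 2, against 9.67, 9.59 and 9.63 in experiment 1. Over all tested probe sets it was 7.96, 7.9 and 8.17 in experiment 2, against 8.29, 8.28 and 8.31 in experiment 1. The TCRab CD8aa array of experiment 2 was the lowest of the 6 arrays for 23 members (29.1%, against 17.7% of all tested probe sets). The TCRab CD8ab array of experiment 2 was the highest for 23 members (29.1%, against 26.2%).

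Other genes of mitochondrial metabolism were read from lists chosen by function. No probe set of any list passed an adjusted p under 0.05 in a comparison of subsets, in limma's fit with or without the block. For the tricarboxylic acid cycle and pyruvate dehydrogenase, which feed electrons to the chain, 19 probe sets had median differences of 0.01 between TCRgd CD8aa and TCRab CD8ab cells and −0.09 between TCRab CD8aa and TCRab CD8ab cells. The smallest adjusted p there was that of Dlst, a subunit of oxoglutarate dehydrogenase (−1.38 ± 0.42, adjusted p = 0.296 with the block), whose other tested probe set had a difference of 0.09. Between experiments 3 of the 19 rose (15.8%, against 13.7% of all tested probe sets) and 4 fell (21.1%, against 20.4%), among them Idh3g, a subunit of NAD-dependent isocitrate dehydrogenase, which fell by 2.40 ± 0.28 (limma adjusted p = 0.000462).

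Mitochondrial ribosomal proteins, which translate the subunits encoded in the mitochondrial genome, had 67 probe sets with median differences of −0.25 between TCRgd CD8aa and TCRab CD8ab cells and −0.23 between TCRab CD8aa and TCRab CD8ab cells. Between experiments 6 of the 67 rose (8.96%, against 13.7% of all tested probe sets) and 25 fell (37.3%, against 20.4%), with a median of −0.48, against −0.02 over all tested probe sets. Mrps34, a protein of the small subunit, fell by 3.35 ± 0.30 (limma adjusted p = 0.000179). Nuclear regulators and mitochondrial transcription genes had 17 probe sets with median differences of −0.27 between TCRgd CD8aa and TCRab CD8ab cells and −0.33 between TCRab CD8aa and TCRab CD8ab cells. Between experiments 1 of the 17 rose and 1 fell (5.88% each, against 13.7% and 20.4% of all). Myc, a transcription factor of growth, fell by 1.58 ± 0.33 (limma adjusted p = 0.00593). Yy1 rose by 1.37 with 1 of its 2 tested probe sets (limma adjusted p = 0.0267), while the other had a difference of −0.02 (limma adjusted p = 0.959).

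Fatty acid oxidation had 16 probe sets. Their medians were 0.23 between TCRgd CD8aa and TCRab CD8ab cells and 0.04 between TCRab CD8aa and TCRab CD8ab cells. Of these, 1 fell between the experiments (6.25%, against 20.4% of all) and 0 rose (against 13.7%) in limma's fit. Hadh, a dehydrogenase of the pathway, fell by 1.46 ± 0.28 (limma adjusted p = 0.00436). Antioxidant enzymes of mitochondria had 6 probe sets with medians of −0.06 and 0.06 in the same comparisons. Of these, 1 fell (16.7%, against 20.4% of all) and 0 rose (against 13.7%) in the same fit. Gpx4, which reduces lipid peroxides, fell by 3.11 ± 0.29 (limma adjusted p = 0.000206). Carriers, channels and uncoupling proteins had 10 with medians of −0.08 and 0, of which 2 rose (20%, against 13.7% of all) and 2 fell (20%, against 20.4%). Both that rose were probe sets of the outer membrane channel Vdac2, by 2.34 ± 0.44 (limma adjusted p = 0.00367) and by 1.02 (limma adjusted p = 0.00985). The probe set with 2.34 passed the filter only through arrays of experiment 2, so its rise follows in part from the filter. Assembly factors outside the rule had 12 with medians of 0.03 and 0.05, of which 3 rose (25%, against 13.7% of all) and 1 fell (8.33%, against 20.4%). Atpif1, an inhibitor of the synthase, rose by 1.61 ± 0.26 (limma adjusted p = 0.00181).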

How the data were processed

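All 6 arrays were used, 2 for each subset. The deposited values were linear signal intensities, 1 per probe set and array, that the authors made with MAS5, per the submitters' processing notes; its version is not given in the sources used here. Detection calls and probe sequences were not used here. Gene symbols came from the platform annotation.

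Each array was scaled to a common 2% trimmed mean, a floor was set at the 20th percentile over all arrays, and values were turned into log2. After leaving out 66 control probe sets, those with at least 2 arrays above the 40th percentile were tested (8299). Differences were fitted with limma 3.58.1 in R 4.3.3 (eBayes with trend) over all tested probe sets, with Benjamini-Hochberg adjustment and a threshold of 0.05; the script was tested on simulated data. The planned fit had no term for the experiment, and a fit with the experiment as a replicate block was the alternative. The series text says that all subsets of an experiment came from 1 pool, so the replicate number pairs the arrays, and deviations from subset means correlated across probe sets at 0.618, 0.713 and 0.603. No array was a copy of another (at most 45 equal values between any 2).

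Members and lists were chosen with earlier results of these data known. Members named with values were, per comparison and complex, the 2 with the smallest p with the block, those beyond 1 log2 unit the same way in both experiments, tissue-restricted isoforms, and the most changed between experiments; others were named from counts after their values were seen. Other scalings, floors, filters, thresholds, eBayes settings, single experiments and arrays left out in turn were tried.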

Additional observations from a re-analysis of the deposited data

How the results depend on the processing

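Between subsets, 0 members passed the threshold under every alternative run, and again 0 with each array left out in turn, with or without the replicate block. The block, which pairs the arrays of 1 experiment, also gave 0 called members in each of the 3 comparisons and changed no call. The median difference of the members ran from −0.33 to 0.07 between TCRgd CD8aa and TCRab CD8ab cells, from −0.43 to 0.06 between TCRab CD8aa and TCRab CD8ab cells and from −0.16 to 0.27 between TCRgd CD8aa and TCRab CD8aa cells when 1 array was left out. That last median was 0 after quantile normalization and 0.09 in experiment 2 alone. None of these signs is therefore fixed by 2 arrays per subset. Leaving out 1 array unbalances the experiments, and the lone array is assumed to vary like the others.

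Between experiments, the 30 called members were 11 without the filter (10.9% of 101, against 4.07% of all probe sets) and 19 with eBayes without trend (24.1%, against 27.4% of all). They were 17 to 29 with an array left out (21.5% to 36.7%, against 22.7% to 35.4% of all), so the share over all probe sets moved as well. They were 17 without TCRab CD8aa replicate 1 or 2 and 18 without TCRgd CD8aa replicate 1 or 2. Since the subset is a term, leaving out 1 array of a subset takes both from the comparison. The members' median of −0.33 was −0.18 without the filter and −0.50 to −0.21 with an array left out. Of the values of single named members under the alternatives, 690 kept their direction and their side of the threshold or moved by less than the replicate spread. The 24 that no longer passed were all differences between experiments, of Cox5b (adjusted p = 0.0514 without the filter), Uqcrc2, Ndufaf4, Cox8c, Ndufb6 and Ndufaf1, and 2 moved further. The cause was not tested. Probe sets near the floor bound no fold change.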

Other observations

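Of 6 mitochondrial ribosomal protein genes with several tested probe sets, 5 had probe sets with differences of opposite sign between the experiments, and 2 had 1 probe set that passed the test in each direction. Mrps25 rose by 1.27 with 1 probe set (limma adjusted p = 0.00437) and fell by 1.98 with another (limma adjusted p = 0.015). Mrpl50 rose by 1.25 with 1 probe set (limma adjusted p = 0.0222) and fell by 1.25 with another (limma adjusted p = 0.0388). These genes were picked after their values were seen. With 1 of its 2 tested probe sets, Ckmt1, a mitochondrial creatine kinase, read log2 9.63 on the TCRgd CD8aa array of experiment 2, the array with the high enterocyte marker sum, and its difference between TCRgd CD8aa and TCRab CD8ab cells was 2.49 ± 1.16 (limma adjusted p = 0.635 with the block). The other Ckmt1 probe set read 6.24 on that array and had a difference of 0.28.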
